A study of Mus musculus with 12 samples.

Results

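The 50 probes described here are those whose log ratio lay on the positive side, read as knockout minus wild type, on every array that set a knockout mouse against a wild-type mouse. They were chosen from 15600 probes (0.321%) by their own measured values. A member had to lie above 0 on all 6 wild-type against knockout arrays and to have a mean over the 6 of at least 0.7. The first condition held for 427 probes (2.74% of the table), the second for 141 (0.904%), and both for the 50. The mirrored rule on the negative side held for 284 probes (1.82%). Those 6 arrays made the choice, so their values, and counts from fits that use them, are given below as a description from which nothing is read. Differences between mice of 1 genotype come from the 6 arrays that the choice did not use.

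The samples were kidney inner medulla aRNA of 3 wild-type mice (WT1, WT2, WT3) and 3 aquaporin-1 knockout mice (KO1, KO2, KO3), hybridised in pairs on 12 two-channel arrays. Array names below give the mouse of channel 1 first and that of channel 2 second. In whole tissue, fewer cells of a type and less RNA per cell cannot be told apart. The WT-KO arrays were WT2-KO1, WT3-KO1 and WT3-KO2 with the wild type in channel 1, and KO2-WT1, KO3-WT2 and KO3-WT1 with the knockout there, so each mouse was on 2 of them. The same-genotype arrays were WT1-WT2, WT1-WT3 and WT2-WT3, and KO1-KO2, KO1-KO3 and KO2-KO3. The labels give genotype, number and tissue of each mouse and name no strain, age, sex, treatment or knockout allele. The mouse is the replicate (n = 3 per genotype), and the arrays of 1 mouse share its RNA.

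Aquaporin-1 is a water channel in the plasma membrane of proximal tubule cells, thin descending limbs and the endothelium of descending vasa recta. Water leaving the descending limb through it helps to build the osmotic gradient of the medulla, and mice without it form dilute urine. Cells of the inner medulla normally live in a hypertonic interstitium, against which they accumulate organic osmolytes.

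All values are centred log ratios, treated as log2, and the array medians that were subtracted ran from -0.047 to 0.040. The sources used here do not say which channel was the numerator. The reading as first-named over second-named mouse is a convention, so "positive" and "above" refer to that reading and no probe is called more or less abundant in either genotype. If the opposite convention held on every array, every sign would turn and the sizes and counts would stay. The table carries probe identifiers without gene names, and 0 of them matched the RefSeq gene table used here (GRCm38.p6). Members are therefore named by identifier, and neither the deleted gene nor markers of the tissue could be checked. Over all probes, array WT1-WT2 correlated with 4 other arrays, read as channel 1 over channel 2, at r = -0.28 or lower (the lowest -0.33, with WT3-KO1). It was not used to choose the members, and results on the same-genotype arrays are also given with it turned where that changes a call or a direction. Signs elsewhere were mixed as well. Of pairs with a common mouse in opposite channels, WT1-WT3 with WT3-KO1 read r = 0.42 and WT3-KO1 with KO1-KO3 0.35. WT2-KO1 with KO1-KO3 read 0.26, whereas KO2-KO3 with KO3-WT1 read -0.20. A difference of the shared mouse alone would give a negative r in such pairs. WT2-KO1 and WT3-KO1 were used to choose the members, and what sets these signs was not tested.

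On the 6 arrays that chose them, the members had means from 0.70 to 3.57 with a median of 0.90. The mean was at least 1 in 19 members and at least 2 in 3. The values were uneven between arrays. The median member stood at 0.56 on WT2-KO1, 0.83 on WT3-KO1, 0.69 on WT3-KO2, 0.61 on KO2-WT1, 1.06 on KO3-WT2 and 1.30 on KO3-WT1. Both arrays that carry KO3 were thus the highest, and 28 of the 50 members had their highest value on one of them. The share of all probes for which this held is not given here, so nothing is read from the count. Over all probes both KO3 arrays were also the widest of the 6, with median sizes of 0.31 and 0.33 against 0.23 to 0.28 on the others. The lowest value was most often on KO2-WT1 (14 members) and WT2-KO1 (12 members). Over the 3 arrays with the knockout in channel 1 the median member averaged 1.12, and over the 3 with the wild type there 0.74. The channel order cannot be told apart from KO3 here, because KO3 was in channel 1 on both of its WT-KO arrays.

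**Figure D1:**
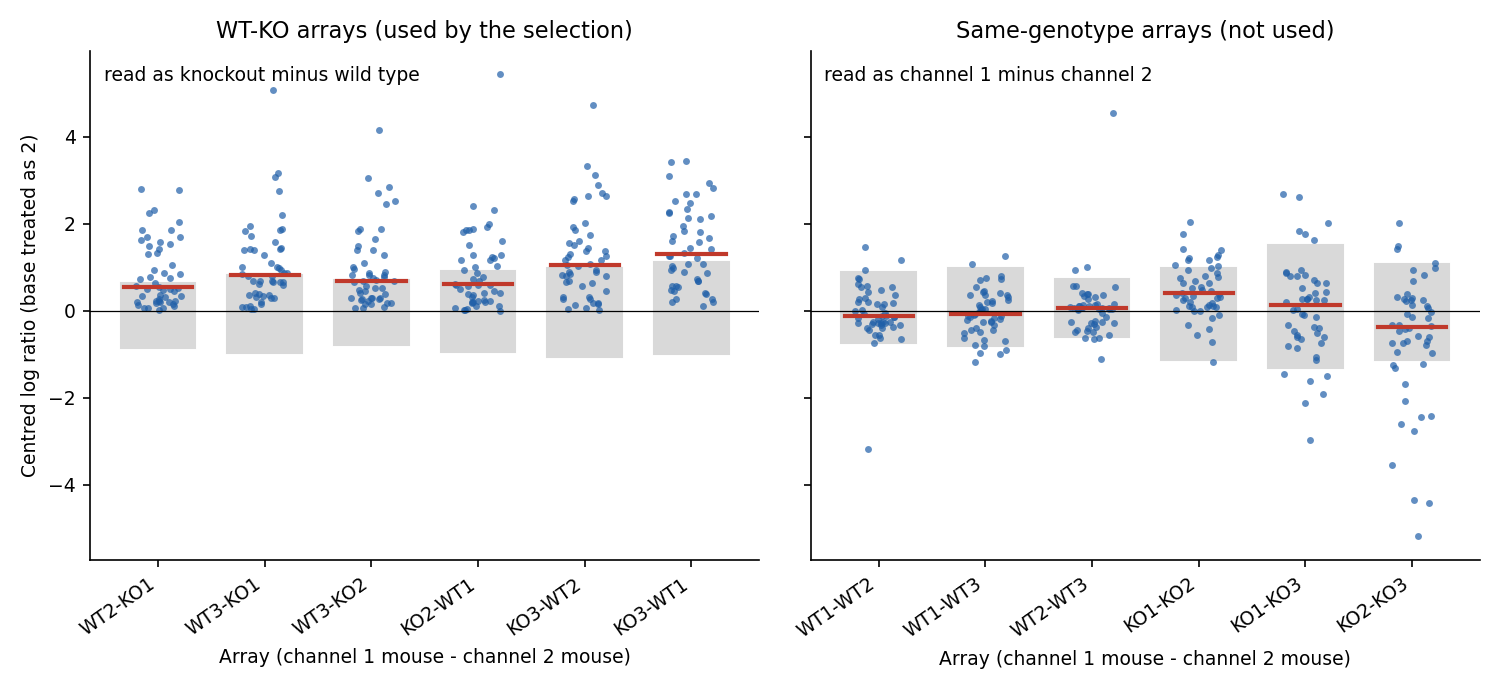
Centred log ratio (y axis) of the 50 members on each of the 12 arrays (x axis); points are members, red bars their median, and grey boxes span the 5th to 95th percentile of all 15600 probes on that array. On the left the medians are highest on KO3-WT2 (1.06) and KO3-WT1 (1.30), and on the right the members reach down to -5.18 on KO2-KO3.

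H3095E04 had the highest mean. It read 1.41 on WT2-KO1, 5.08 on WT3-KO1, 4.15 on WT3-KO2, 5.44 on KO2-WT1, 2.65 on KO3-WT2 and 2.69 on KO3-WT1. The mean of 3.57 ± 1.57 (SD, n = 6 arrays) corresponds to 11.9-fold with base 2 and to 35.5-fold with natural logarithms. The array of WT2 with KO1 was the lowest, and the other array with WT2 was the next lowest. The arrays not used for the choice read -3.18 on WT1-WT2 and 4.54 on WT2-WT3 against -1.18 on WT1-WT3. On those arrays WT2 differed from WT1 and WT3 by 3.86 (SE 0.36), with an adjusted p of 0.406 in limma. That difference depends on the direction of WT1-WT2, and with this array turned it was 0.68 (SE 0.72; limma adjusted p = 1.00). In the fit to all 12 arrays, in which values are relative to the mean of the 6 mice, its value was -2.95 in WT1, 0.44 in WT2 and -2.84 in WT3, against 2.28 in KO1, 1.48 in KO2 and 1.60 in KO3. The 3 knockout mice lay above the 3 wild-type mice, and the spread was wider among the wild-type (SD 1.92) than among the knockout mice (SD 0.43).

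H3083G02 read 2.76, 3.16, 3.05, 1.87, 1.61 and 1.27 on the 6 arrays in the order given above, a mean of 2.29 ± 0.81. Its lowest values were on both KO3 arrays. H3144D01 read 2.80, 1.94, 2.85, 0.38, 2.89 and 2.13, a mean of 2.16 ± 0.96, so that KO2-WT1 alone lay under 1. H3112A08 had a mean of 1.94 ± 0.71, with 1.08 as its lowest array and 2.74 as its highest. These 3 probes and H3095E04 were the members with the highest means.

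H3118A10 read 1.48, 1.41, 2.46, 0.49, 2.71 and 2.53 (mean 1.85 ± 0.86), and as in H3144D01 the lowest array was KO2-WT1. H3066E06 ran from 0.65 to 3.45 with a mean of 1.66 ± 1.02, and H3096D08 from 0.46 to 3.10 with a mean of 1.57 ± 0.90. Both had their highest value on KO3-WT1. H3076E06 and H3111D10 had the opposite order. H3076E06 read 2.30, 2.20, 1.41 and 2.41 on the 4 arrays with KO1 or KO2, and 0.13 and 0.20 on the arrays with KO3. H3111D10 read 1.57, 1.87, 2.52 and 1.86 on those 4 and 0.15 and 0.55 with KO3. H3086G08 read 0.33 to 0.56 on the 3 arrays with the wild type in channel 1 and 1.92 to 2.35 on the 3 with the knockout there, without overlap, for a mean of 1.33 ± 0.97.

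**Figure D2:**
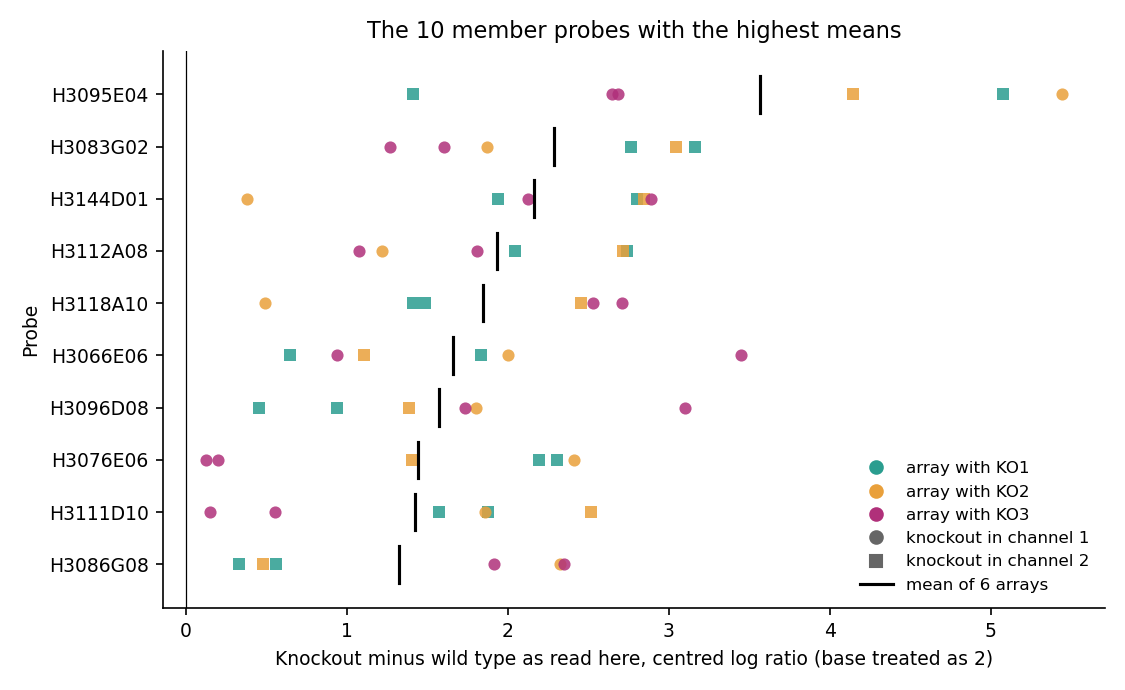
Log ratio read as knockout minus wild type (x axis) of the 10 members with the highest means (y axis) on each WT-KO array; colour gives the knockout mouse, circles and squares the channel of the knockout, and black bars the mean of 6 arrays. H3095E04 runs from 1.41 to 5.44, and both KO3 arrays of H3076E06 and H3111D10 lie under 1.

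Evenness over the 6 arrays was uncommon. Only 7 members read at least 0.5 on every array, and 16 read under 0.1 on at least 1. The SD over the 6 arrays had a median of 0.79 and ran from 0.17 to 1.84. The most even member was H3054F05, with 0.88, 1.01, 0.68, 0.93, 0.58 and 0.67 (mean 0.79 ± 0.17). H3154A09 (SD 0.28) and H3025A02 (SD 0.30) came next. The 5 members with the highest lowest array were H3095E04, H3083G02, H3112A08, H3066E06 and H3054F05.

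The widest member was H3013A11, which read 4.72 on KO3-WT2 and 0.01 to 0.97 on the other 5 arrays. H3097G03 read 3.41 on KO3-WT1 and 1.85 on KO2-WT1, with 0.17 to 0.66 on the rest. Members of this kind reached the mean through 1 or 2 arrays. At the threshold, H3076A09 (0.7028), H3025A02 (0.7029) and H3154A09 (0.7037) lay just inside, and H3143D01 (0.6997), H3008G06 (0.6939) and H3021B02 (0.6852) just outside. H3076A09 owed its place to WT3-KO1, with 3.08 there and at most 0.63 elsewhere. A further 91 probes had a mean of at least 0.7 but not 6 positive arrays, and 54 of them missed by 1 array.

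Members also divided by knockout mouse on the WT-KO arrays. In 15 members both KO3 arrays lay above all 4 arrays with KO1 or KO2, in 5 members both lay below them, and in 30 the values overlapped. Over all probes the shares were 11.8% above and 11.3% below. In the 15, the median member's mean over the KO3 arrays was 1.68 against 0.40 for the other 4, and in the 5 it was 0.35 against 1.96. The 5 were H3083G02, H3076E06, H3111D10, H3054F05 and H3055D11. Among the 15, H3048C01 read 0.09 to 0.23 on the 4 arrays and 3.13 and 1.60 on those with KO3. H3158G06 read 0.24 to 0.78 on the 4 and 3.32 and 1.95 with KO3. H3104H03 read 0.21 to 0.74 and then 2.03 and 1.68, with at most 0.28 in size on each same-genotype array, so that its KO3 values had no counterpart on the KO-KO arrays. H3048C01, H3158G06 and H3104H03 were picked out after their values were seen.

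Between animals, in the fit to all 12 arrays, all 3 knockout values lay above all 3 wild-type values in 41 members (8.24% of all probes). In limma's test over the 6 mouse values, 0 members passed an adjusted p of 0.05 (0.0% of all probes). At an unadjusted p under 0.05, 41 members passed on the positive side (3.76% of all probes). The choice of the members used this contrast, and nothing is read from these counts. The median SD of the members was 0.45 among the 3 knockout and 0.24 among the 3 wild-type mice. It was larger among the knockout mice in 37 of the 50 members, against 61.1% of all probes.

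The arrays that the choice did not use asked how far the members differ between mice of 1 genotype. Members were wider than the table on every one of them, and more so between knockout mice. The median size of a member's value, without its sign, was 0.36 on WT1-WT3, 0.30 on WT1-WT2 and 0.29 on WT2-WT3, which is 1.29, 1.25 and 1.24 times the median size over all probes. It was 0.50 on KO1-KO2, 0.65 on KO1-KO3 and 0.72 on KO2-KO3, which is 1.71, 1.58 and 1.92 times that of all probes. A size of at least 2 on any of the 6 arrays occurred in 17 members (34%), against 8.35% of all probes. The rule itself, applied to these arrays as labelled with channel 1 over channel 2, held for 164 probes (1.05% of the table), of which 1 was a member.

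The knockout arrays had a direction as well as a size. The median member read 0.40 on KO1-KO2, -0.38 on KO2-KO3 and 0.13 on KO1-KO3, so KO2 lay on the lower side of both other knockout mice. On KO1-KO2, 42 members were above 0, against 50% of all probes. KO2 was the lower mouse on both of its arrays in 27 members and the higher on both in 3, and each pattern held for 21.8% of all probes. KO2 was once in channel 1 and once in channel 2 on these arrays, so a channel term common to the arrays cancels from its value. WT2 was likewise once in each channel on the wild-type arrays.

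Taking each mouse against the mean of the other 2 of its genotype, KO2 was lower by at least 0.7 in 20 members (5.65% of all probes) and higher by at least 0.7 in 0 (4.03% of all probes). For WT2, 1 member was higher by at least 0.7 (3.75%) and 2 were lower (3.9%). With WT1-WT2 turned, 2 other members, H3061D06 and H3143D02, had WT2 higher (2.53% of all probes) and 0 had it lower (2.11%). With the channel term left out and without array KO2-KO3, the number of members with KO2 lower by at least 0.7 was 16 (10.4% of all probes) and the number with KO2 higher was 4 (11.4%). Without KO1-KO2 they were 18 (10.4%) and 5 (9.5%). KO1-KO3 does not enter the value of KO2 when all 3 arrays are used. More members thus had KO2 on the lower than on the higher side with either of its arrays left out. In each of these runs KO2 was in 1 channel only, so a channel term did not cancel from its value.

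**Figure D3:**
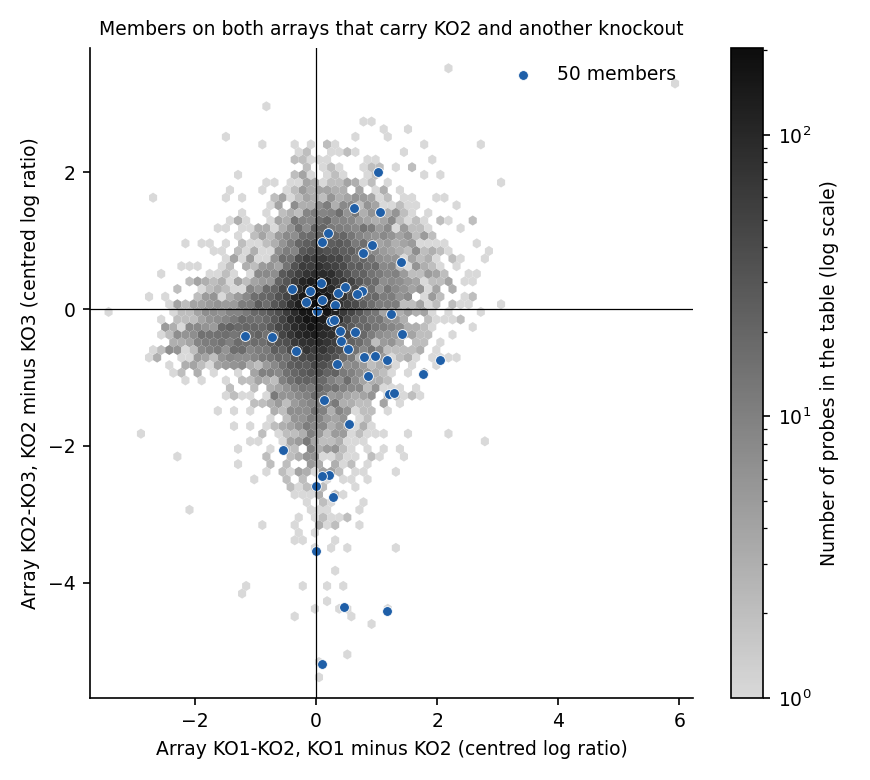
Centred log ratio on KO1-KO2 (x axis) and on KO2-KO3 (y axis), both arrays that set KO2 against another knockout mouse; blue points are the 50 members and grey hexagons count all probes of the table on a log scale. The lower right field, where KO2 is the lower mouse on both arrays, holds 27 members, and the upper left field holds 3.

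Several of the members with high means took part. On KO1-KO2, 11 members read at least 1 (4.91% of all probes) and 1 read -1 or lower (6.15% of all probes). The highest were H3118A10 (2.04) and H3144D01 (1.77), both of which also read lowest on KO2-WT1 among the WT-KO arrays. The other WT-KO array with KO2, WT3-KO2, was not low in them, at 2.46 in H3118A10 and 2.85 in H3144D01. H3118A10 read -0.75 on KO2-KO3 and 0.87 on KO1-KO3, and H3144D01 read -0.96 and 0.81 there. In both probes, KO2 was the lower mouse on each of its KO-KO arrays.

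The 3 members with KO2 higher on both of its arrays were H3013A11 (-0.41 on KO1-KO2 and 0.29 on KO2-KO3), H3034G10 (-0.17 and 0.11) and H3068E05 (-0.11 and 0.27). A pair of members had the opposite sign on KO1-KO2 but not on KO2-KO3. H3068B12 read -1.18 on KO1-KO2, the lowest member there, and H3025A02 read -0.72, and on KO2-KO3 they read -0.39 and -0.41. On the wild-type arrays the same probes read 1.46 and 0.94 on WT1-WT2, -1.11 and -0.56 on WT2-WT3, and -0.96 and -0.80 on WT1-WT3. They were the members in which WT2 was lower by at least 0.7, at -1.29 (SE 0.42; limma adjusted p = 0.903) and -0.75 (SE 0.38; limma adjusted p = 1.00). With WT1-WT2 turned both differences changed sign, to 0.18 (SE 0.29) and 0.19 (SE 0.29), so that their direction is not settled. The pair was picked out after its values were seen. On the WT-KO arrays H3068B12 ran from 0.45 to 1.65 and H3025A02 from 0.33 to 1.16.

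KO1 and KO3 are less well placed on these arrays. KO1 was in channel 1 and KO3 in channel 2 on both of theirs, so their values rest on the estimated channel term. KO3 was higher by at least 0.7 in 17 members (17.5% of all probes) and lower by at least 0.7 in 8 (19.1%). KO1 was higher by at least 0.7 in 20 members (17.6%) and lower in 6 (16.9%). In 15 members both KO3 arrays lay above the others. Their median difference from the other knockout mice was -1.27 for KO2, 0.66 for KO3 and 0.67 for KO1. The values for KO1 and KO3 depend on the channel term, which had a median of -0.49 in the 15. On array KO1-KO3 itself their median was -0.56, with KO3 the higher mouse, so the order of KO1 and KO3 is not settled. In the 5 with both below, the medians were 0.03 for KO2, -0.24 for KO3 and -0.22 for KO1.

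No member passed limma's test on these arrays (0 of 50 at an adjusted p under 0.05 for each of the 6 mice and for the channel term), and 0.0% of all probes did. The fit leaves 1 residual degree of freedom and tests RNA samples against array error, not animals. With so little left to estimate the error from, it has little power, and the count of 0 does not show that the mice were alike. At an unadjusted p under 0.05, KO2 gave 18 members (7.06% of all probes), all of them with KO2 lower. The other mice gave 10 for KO3 (11.5%), 7 for KO1 (10.2%), 6 for WT1 (3.71%), 2 for WT2 (4.77%) and 5 for WT3 (5.74%), and the channel term gave 6 (3.8%). With array WT1-WT2 turned, 4 members passed an adjusted p of 0.05 in limma for KO3 (2.22% of all probes), 2 for KO1 (1.79%) and 1 for KO2 (0.192%), and none for a wild-type mouse or the channel term.

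H3021E10 stood out on KO2. It read -4.41 on KO2-KO3, 1.17 on KO1-KO2 and -1.92 on KO1-KO3, and on the WT-WT arrays between -0.16 and 0.11. The value of KO2 was lower than that of KO1 and KO3 by 2.79 in size (-2.79, SE 0.33), the lowest difference of KO2 among all 15600 probes, with an adjusted p of 0.585 in limma. With WT1-WT2 turned the difference was -2.79 (SE 0.31) with an adjusted p of 0.00715 in limma. KO3 differed by nearly as much, lying above KO1 and KO2 by 2.64 (SE 0.66; limma adjusted p = 0.214). With WT1-WT2 turned the KO3 difference was 2.64 (SE 0.63; limma adjusted p = 0.0484). On the WT-KO arrays H3021E10 read 0.19 and 0.20 with KO2, 0.06 and 1.28 with KO1, and 1.26 and 2.68 with KO3. The arrays with KO2 were thus near 0, and those with KO3 were not.

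H3083G02 differed the other way round. It read 2.68 on KO1-KO3, 0.77 on KO1-KO2 and 0.82 on KO2-KO3, all on the same side, so that KO1 was the highest and KO3 the lowest knockout mouse. The difference of KO3 from KO1 and KO2 was -2.99 (SE 0.56) with an adjusted p of 0.159 in limma, and with WT1-WT2 turned it was -2.72 (SE 0.58) with an adjusted p of 0.0306. H3114D03 read 2.62 on KO1-KO3, 1.17 on KO1-KO2 and -0.74 on KO2-KO3, and KO1 differed from the other knockout mice by 3.66 (SE 0.59; limma adjusted p = 0.188). With WT1-WT2 turned it was 3.41 (SE 0.61; limma adjusted p = 0.0149). H3154A09 and H3051C09 had the opposite sign, with KO3 higher by 2.98 (SE 0.58) and 2.53 (SE 0.63). With WT1-WT2 turned, the KO3 difference of H3051C09 was 2.66 (SE 0.60; limma adjusted p = 0.0394). H3077D09 was also called for KO3 in that setting, at 3.84 (SE 0.70; limma adjusted p = 0.0147), against 3.56 (SE 0.91; limma adjusted p = 0.220) as deposited. The remaining member called for KO3 there was H3021E10. In H3114D03, H3154A09 and H3051C09 the channel term also had its smallest p among the members, at -1.77 (SE 0.51), 1.69 (SE 0.50) and 1.84 (SE 0.55). By the design, this term is added in full to a KO3 difference and subtracted in full from a KO1 difference. It is thus a large part of the KO3 differences of H3154A09 (2.98) and H3051C09 (2.53) and of the KO1 difference of H3114D03 (3.66). H3090E02 completed the probes with the smallest p, with KO2 lower (-1.32, SE 0.28).

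A group of 9 members read -2 or lower on KO2-KO3, which 1.23% of all probes did. The group was chosen after these values were seen. They were H3094H12 (-5.18, the 2nd lowest of the table on that array), H3021E10 (-4.41), H3019B02 (-4.35), H3095D05 (-3.54), H3146G04 (-2.75), H3076E08 (-2.59), H3022H05 (-2.44), H3090E02 (-2.42) and H3125B02 (-2.06). All 9 were also below 0 on KO1-KO3, from -1.92 to -0.13 with a median of -0.60, whereas KO1-KO2 had a median of 0.10. Of the 192 probes of the table at or below -2 on KO2-KO3, 94.3% were below 0 on KO1-KO3 as well, with a median of -0.90. The sign on KO1-KO3 is thus not particular to the 9 members. Both arrays carry the RNA of KO3 in channel 2 and correlated at r = 0.46 over all probes. Arrays without a common mouse reached a like value (r = 0.48 for WT1-WT3 with KO1-KO2), and the reason was not tested. On the WT-KO arrays, the 9 read 1.58 to 2.93 on KO3-WT1 and 0.68 to 2.64 on KO3-WT2, and 0.02 to 1.28 on the 4 arrays with KO1 or KO2. In 7 of the 9 both KO3 arrays lay above the other 4. The same share among the 192 probes at or below -2 on KO2-KO3 is not given here. The WT-KO arrays were also used to choose the members, so nothing is read from this count. KO3 was in channel 2 on the KO-KO arrays and in channel 1 on the WT-KO arrays, so its channel differed between these readings.

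In some members the 3 knockout arrays did not close. Going round the 3 arrays of a genotype, the sum of KO1-KO2 and KO2-KO3 less KO1-KO3 leaves the channel term and array error. For H3094H12 KO1-KO2 read 0.10 and KO1-KO3 -0.60, so that the sum was -4.49. It exceeded 2 in size in 10 members (20%), against 4% of all probes. Around the wild-type arrays it exceeded 2 in 1 member, H3095E04 (2.54), against 4.74% of all probes. With WT1-WT2 turned it did so in 2 members, H3095E04 (8.90) and H3119G08 (2.01), against 2.34% of all probes. In H3095E04 the 3 wild-type arrays thus closed worse with that array turned.

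**Figure D4:**
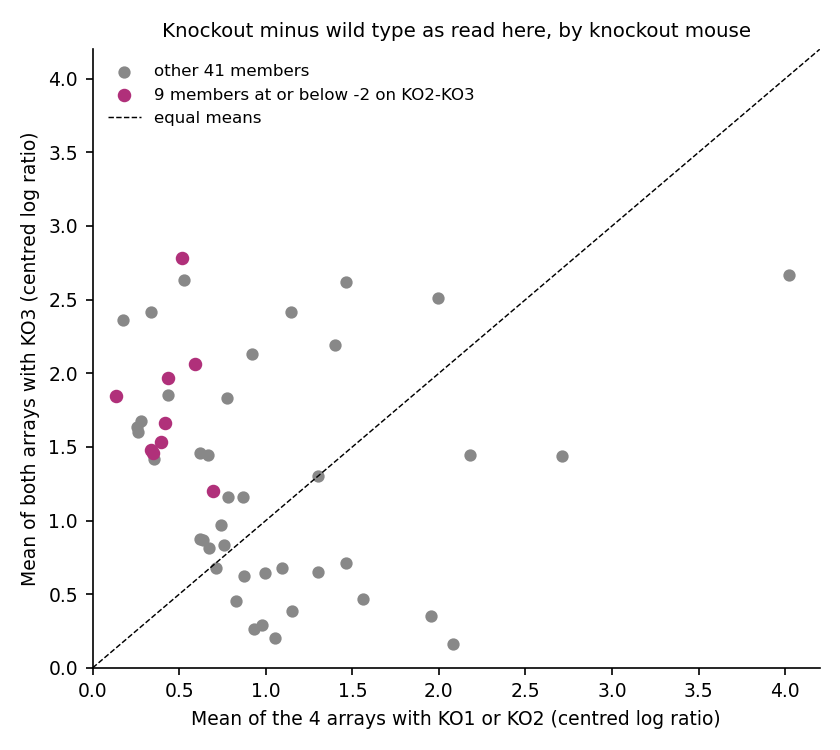
Mean of the 4 WT-KO arrays with KO1 or KO2 (x axis) and of both arrays with KO3 (y axis) for each member, read as knockout minus wild type; the dashed line marks equal means, and coloured points are the 9 members at or below -2 on KO2-KO3, an array the selection did not use. All 9 lie above the line, as do 33 of the 50 members, and the share of all probes above it is not given here.

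The identifiers were the other property the choice did not use. All 50 members carried the prefix H3, and none of the 336 probes with the prefix Z3 (2.15% of the table) was a member. The first 5 characters form 163 blocks, read here as source plates, and the members came from 42 of them. Plate H3076 held 3 members (wells A09, E06 and E08), and 6 plates held 2. In 3 plates the pair sat in diagonally adjacent wells. These were H3095D05 with H3095E04, H3119G08 with H3119H09, and H3125A01 with H3125B02. No background number of such pairs is given here. Probes in wells next to a member that were not members themselves averaged -0.02 in the median, and 0.00 over all probes. That average leaves out the 3 pairs. By row letter, 12 members were in D, 10 in E, 9 in G and 7 in A, but 1 was in F and 2 in C, where each row holds 12.5% of the table.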

How the data were processed

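The series holds 12 two-channel arrays. The deposited table gives 1 signed log ratio per probe and array, treated here as log2, without missing values. Log base, numerator, background correction, normalization and spot filters are not given in the sources used here. Base 10 would place the highest value (9.97) beyond the largest 16-bit intensity (4.82 on that scale). Intensities were not analysed here, and the number of arrays limits the precision. The labels do not say whether a mouse's RNA was prepared once or more, so p-values over arrays measure array error.

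Array medians were subtracted, and the 3 arrays with the wild type in channel 1 were multiplied by -1. A least-squares loop fit to the 12 ratios of each probe gave a value per mouse and a channel term, and mouse values were compared with limma 3.58.1 in R 4.3.3 (lmFit, eBayes). The 6 same-genotype arrays were fitted with limma with mice as fixed terms and a channel term (1 residual and 5.3 prior degrees of freedom). P-values were adjusted over all 15600 probes by the Benjamini-Hochberg method. Both fits were tested on simulated data. Named probes are those with the highest means, the highest lowest array, the smallest and largest SD, the smallest p on the same-genotype arrays, and those nearest the threshold. Others are named where a count or figure turns on them, after their values were seen. The members and lists were chosen with earlier results of these data known. Without gene names, no list of genes or cell markers was used.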

Additional observations from a re-analysis of the deposited data

Results flagged for a closer look

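In 8 of the 50 members, 1 of the 6 WT-KO arrays lay far from the other 5, with a gap to its nearest neighbour that was above Dixon's critical share of the whole range for 6 values. The same held for 8.97% of all 15600 probes. Chance gives about 1 in 20 for unselected groups of 6, a rate that does not apply to members chosen by these same values, and nothing is read from the count. The array was one with KO3 in 7 of the 8, and the same share among all flagged probes is not given here. On KO3-WT2, H3013A11 read 4.72 with 0.97 as the next value, H3034G10 read 2.52 with 0.69 next, and H3068E05 read 2.57 with 0.88 next. On KO3-WT1, H3125B02 read 1.72 (next 0.85), H3146G04 2.48 (next 0.84), H3094H12 2.26 (next 0.80) and H3076E08 2.11 (next 0.81). H3076A09 read 3.08 on WT3-KO1, with 0.63 next.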

How the results depend on the processing

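The 50 members became 41 with uncentred values (40 of them shared), 51 with scaled arrays (46 shared), 57 with the channel term removed (39 shared) and 49 with plate medians subtracted (38 shared). The number was 97 at a minimum mean of 0.5 and 19 at 1. Leaving out 1 array or 1 mouse, which also leaves fewer arrays that must be positive, gave 47 to 198. It was 90 without WT2-KO1 and 97 without KO2-WT1, and 100 without WT1, 104 without WT2, 166 without WT3, 198 without KO1, 163 without KO2 and 120 without KO3. The count of 0 in the genotype fit held for every alternative run except an unadjusted p under 0.05 (41). On the same-genotype arrays, KO3 gave 4 members with WT1-WT2 turned and 10 unadjusted, the highest other mouse 2 and 18, and the channel term 6 unadjusted. The 20 members with KO2 lower by 0.7 became 33 at a minimum mean of 0.5 and 10 at 1, as the member lists grew to 97 and shrank to 19. The share in rows D, E and G of the identifier was 62% (37.5% of all probes), and 48.5%, 78.9% and 49% at 0.5, at 1 and with plate medians subtracted. These are the rows with the most members and were not grouped in advance, so nothing is read from their share. Uncentred, scaled and plate-subtracted values moved no member's mean by over 1 SD (150 values). Without 1 array, the mean of 13 members fell by over 1.5 times, in 12 of them without an array of KO3. The same counts over all probes are not given here. The fall was largest in H3013A11 (1.03 to 0.29 without KO3-WT2), H3076A09 (0.70 to 0.23 without WT3-KO1), H3068E05 (0.71 to 0.34 without KO3-WT2) and H3034G10 (0.71 to 0.35 without KO3-WT2). The labels do not say that mouse numbers pair the mice, and deviations of same-numbered mice correlated at -0.08, -0.24 and -0.04. With the mouse number as a replicate block, 0 members passed, and 42 against 41 unadjusted. Counts by size on the other alternatives stayed within 1.5 times. With the channel term, leaving out a same-genotype array leaves no residual degree of freedom, so the test was then run without it. Filters on dim spots were not run for want of intensities.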
